A study of Mus musculus with 12 samples.

Results

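Fasting and insulin-FOXO signalling genes were examined in the hypothalamus of mouse pups exposed to modified maternal separation (MMS). The group held 10 genes, taken by exact symbol from the 43280 gene rows of the deposited count table. All 10 had a row, and 9 passed the filter on low counts. The exception was Pdk4, with 105 reads over all libraries. They comprise the receptors Insr and Igf1r, the adaptor Irs2, the transcription factors Foxo1 and Foxo3, and the genes Sesn1, Txnip, Pdk4, Cpt1a and Angptl4, which respond to nutrients or fasting in other tissues.

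The pups were male C57/Bl6 mice killed at postnatal day 6. On consecutive days, pups of the MMS group were removed from the dam for a short time, kept warm and turned onto their backs, and the tissue was taken straight after the last session. Controls were untreated littermates, and each group gave 6 libraries, 1 per pup. The study shared out the males of each litter over both groups. Labels do not tie libraries to litters, so pups compared here may be littermates, which the tests do not model.

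Insulin and the insulin-like growth factors bind the receptor kinases encoded by Insr and Igf1r, which phosphorylate adaptors such as IRS2 and so activate PI3-kinase and AKT. AKT phosphorylates FOXO factors and keeps them out of the nucleus. In fasting, AKT activity is low and FOXO factors switch on genes such as Irs2, Sesn1 and Pdk4, while PPARα, a receptor for fatty acids, induces Pdk4, Cpt1a and Angptl4. Separated pups do not nurse, so the comparison asks whether the transcripts of this pathway differed between pups taken from the dam and their untreated littermates. The separations were short, and the study reported no group difference in weight gain or in blood glucose straight after the last session. A fasted state of the MMS pups was thus not shown.

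Libraries held between 3218777 and 6560620 counts, so 1 CPM, the unit of level used here (reads relative to the scaled library total), stood for 3.11 to 6.48 reads. The libraries MMS 2 and MMS 4 differed most from the rest, with scores of 57.8 and 46.3 on the first principal component of all genes against −14.4 to −3.04 elsewhere. Their summed level of 16 markers of ciliated ependymal cells was 26.3 and 46.8 CPM, against 108 to 217 CPM in the controls. All 16 markers of hypothalamic neurons passed the filter, with a sum of 1377 to 2295 CPM in controls and 1639 to 2206 CPM in MMS pups. Of 7 pituitary markers 0 passed, but their sum was uneven. It ran from 0.229 to 23.6 CPM in controls and from 0 to 41.2 CPM in MMS pups, highest in MMS 3. Markers of the neighbouring telencephalon and thalamus, 8 genes, summed to 111 to 581 CPM in controls and 134 to 473 CPM in MMS pups. The tissue was whole hypothalamus, in which fewer cells of a type and less RNA per cell cannot be told apart.

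Of the members, Txnip is shown with its promoter because it carries the words read by both arms of nutrient sensing. The protein it encodes binds thioredoxin and limits glucose uptake. FOXO factors bind the word TGTTTAC, and the glucose-responsive factors MondoA and ChREBP bind paired copies of words such as CACGAG. Both strands were searched in the RefSeq promoters of build GRCm38.p6, each 300 bases long and lying mostly before the start, and no match in a member overlapped another. Promoters of 8 members were held there, without Angptl4 and Insr. The stretch of Txnip from 160 to 61 bases upstream of the RefSeq start, at chr3:96557797-96557896 on the plus strand, has in capitals the forkhead word, read on the opposite strand, followed by a pair of CACGAG words.
Txnip: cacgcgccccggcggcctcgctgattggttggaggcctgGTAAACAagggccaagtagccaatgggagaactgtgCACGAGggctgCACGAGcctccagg

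The forkhead word TGTTTAC lay in 3.65% of all 32851 promoters, and among members in those of Txnip, 121 bases upstream, and Sesn1, at base 23 counted from the start. The related word TGTTTTG lay in 6.28% of promoters, and among members in Irs2, 37 bases upstream, and Cpt1a, 219 bases upstream. CACGAG lay in 6.47% of promoters and among members in Txnip and Foxo3. Positions are counted from RefSeq starts, which equal the GENCODE gene start printed here for Txnip but not for Sesn1, Irs2, Cpt1a or Foxo3, and the word of Cpt1a lies inside the GENCODE gene. These are matches of letters only, with no measurement of binding.

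No member passed the test of MMS against control pups. Of the 9 tested, 0 passed an adjusted p of 0.05 in edgeR, DESeq2 or limma-voom, and 0 reached an unadjusted p under 0.05 in edgeR. Over all 13104 genes tested 0, or 0%, passed the adjusted threshold in edgeR, and 9.08% reached the unadjusted one, 4.68% higher in MMS and 4.4% lower. The members were near balance, with 4 higher in MMS and 5 lower and a median log2 fold change of −0.04, beside 50.1% higher over all genes. In 0 members did the groups lie wholly apart, which occurred in 0.13% of genes with MMS higher and in 0.259% with MMS lower. The values by library and the log2 fold changes with their intervals are plotted for each member.

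**Figure D1:**
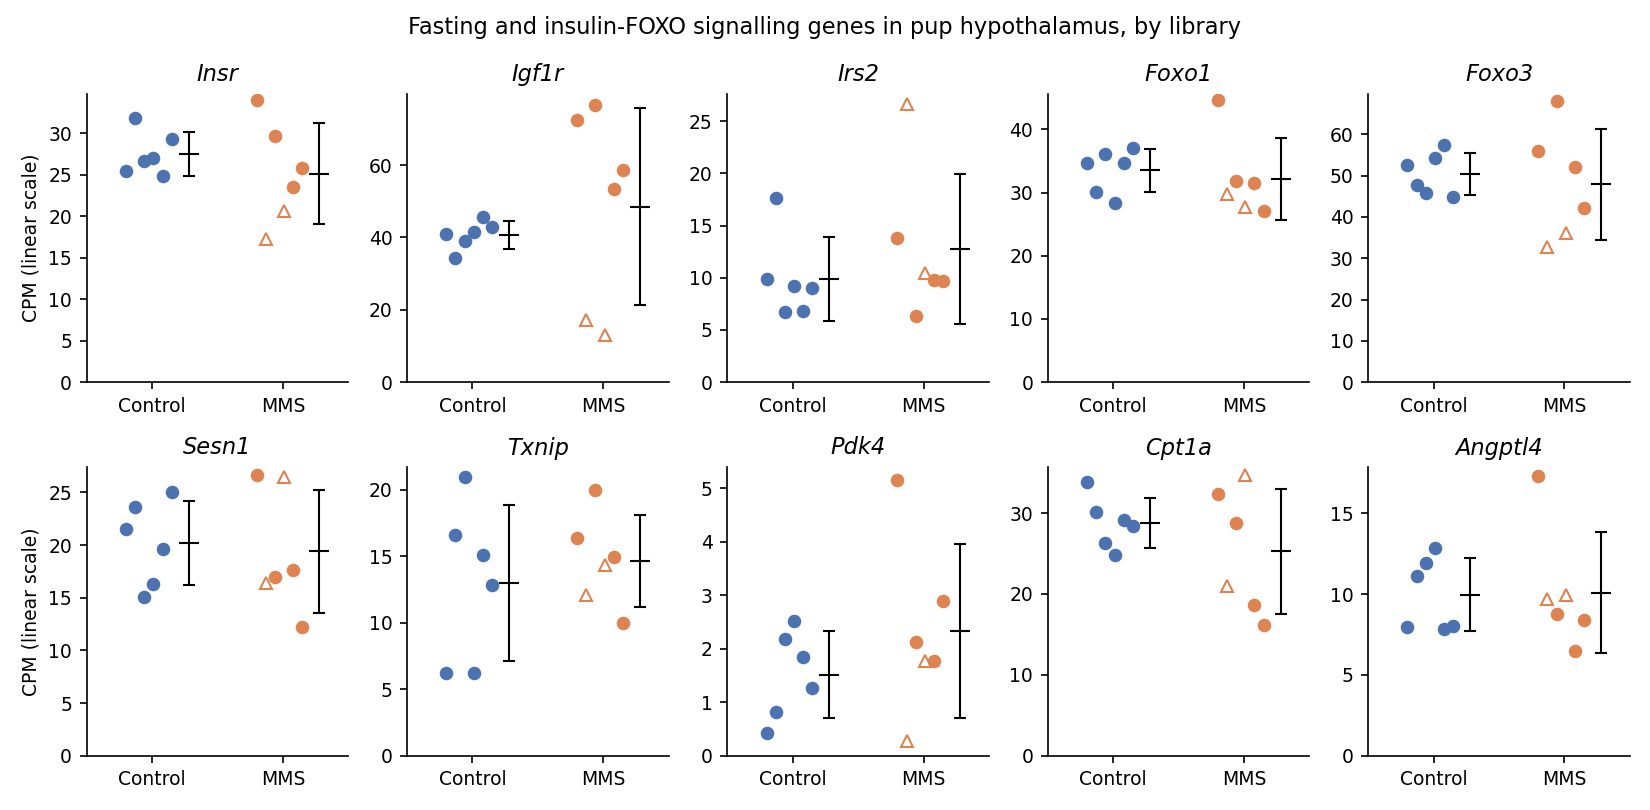
Levels of the 10 members in CPM on linear axes that start at 0, one panel per gene, with one point per library (6 Control, 6 MMS), open triangles for MMS 2 and MMS 4, and the mean ± SD of each group beside the points. The groups overlap in every panel; for Igf1r 4 MMS libraries lie above the controls, which reach 45.7 CPM, while the triangles lie below all of them.

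Insr encodes the insulin receptor (chromosome 8, 3122061 to 3279617, minus strand, build mm10 here and below). Its level was 27.5 ± 2.61 CPM in controls and 25.1 ± 6.08 in MMS pups (SD, n = 6 each). Controls ran from 24.8 CPM through a median of 26.9 to 31.8 CPM. MMS pups ran from 17.2 CPM through 24.6 to 33.9 CPM, so the MMS pups enclosed the control range on both sides. The log2 fold change was −0.13 (SE 0.16, 95% interval −0.46 to 0.19, edgeR adjusted p = 0.794). The lowest values, 17.2 and 20.6 CPM, were those of MMS 2 and MMS 4, and without these libraries the log2 fold change was 0.04. Other genes overlap Insr on the opposite strand, and whether the counting used strand is not given in the sources used here, so the reads of such pairs cannot be told apart.

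Igf1r encodes the receptor of the insulin-like growth factors and lies at 67952827 to 68233668 on the plus strand of chromosome 7, with no overlapping gene. Levels in controls were closely grouped, at 40.9, 34.2, 38.9, 41.5, 45.7 and 43.0 CPM in Controls 1 to 6. The MMS pups had 72.3, 17.2, 76.6, 13.1, 53.3 and 58.6 CPM in MMS 1 to 6. Thus 4 MMS pups lay above every control, and MMS 2 and MMS 4 lay below every control. The SD of log2 CPM was 0.14 among controls and 1.09 among MMS pups. With all 12 libraries the log2 fold change was 0.24 (SE 0.38, 95% interval −0.59 to 1.08, edgeR adjusted p = 0.849), and limma-voom gave −0.09.

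Without MMS 2 and MMS 4, Igf1r was 1.60-fold higher in the remaining MMS pups, a log2 fold change of 0.68 (SE 0.12, 95% interval 0.43 to 0.93, edgeR adjusted p = 0.0164). MMS 2 and MMS 4 were picked out from these same counts and held the lowest Igf1r levels. Leaving them out removes the opposing values, so this interval and p are not a test of MMS. In that fit 5.03% of the 13407 genes tested reached an unadjusted p under 0.05. Igf1r was 1 of the 5 genes past the adjusted threshold, or 0.0373%. The other 4 were Nr4a3, Fosl2, Per1 and Fam107a, named here after their values were seen. The SD of log2 CPM among those MMS pups was 0.25. All of MMS 1, 3, 5 and 6 above every control was seen in 65 genes, 0.496% of those tested, and that together with MMS 2 and MMS 4 below every control in 9 genes, 0.0687%. Per1, a clock gene, was another of these 9. Its level was 22.5 to 29.4 CPM in controls and 37.2 to 56.4 CPM in MMS 1, 3, 5 and 6. In MMS 2 and MMS 4 it was 15.8 and 21.8 CPM.

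**Figure D2:**
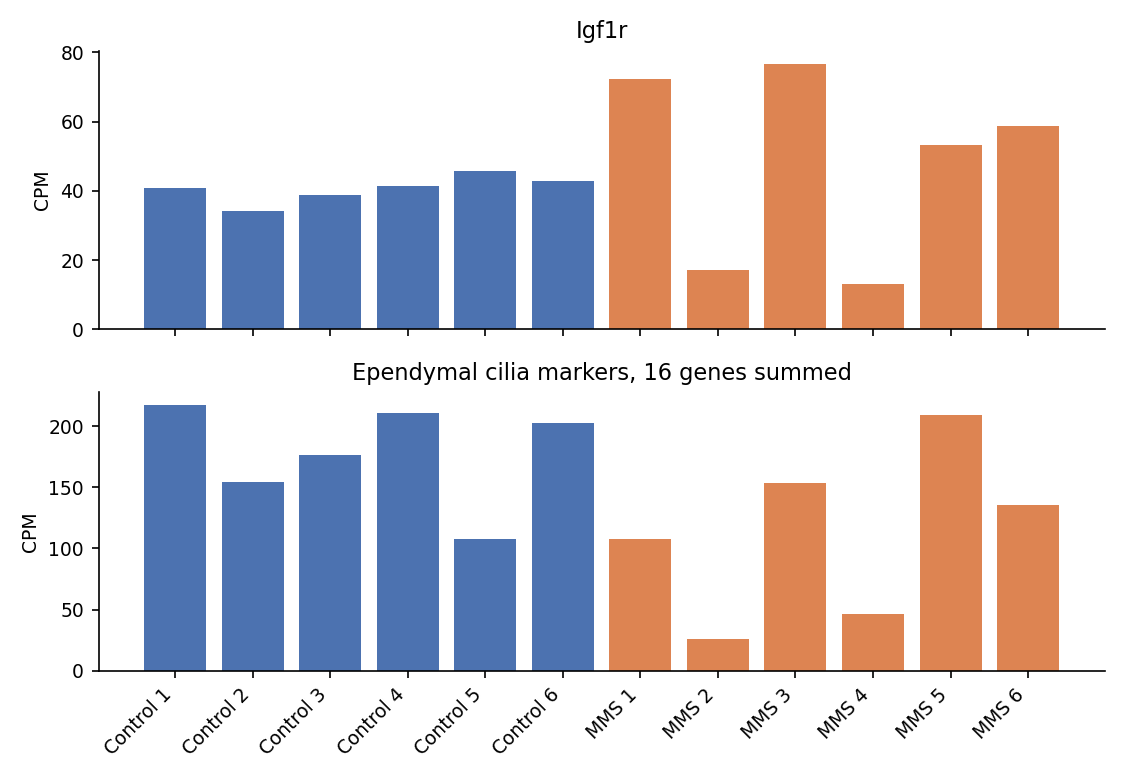
Upper panel, Igf1r level in CPM in each of the 12 libraries; lower panel, summed CPM of 16 ependymal cilia markers in the same libraries; bars start at 0, blue for Control and orange for MMS. MMS 2 and MMS 4 have the lowest bars in both panels, at 17.2 and 13.1 CPM for Igf1r and 26.3 and 46.8 CPM for the markers.

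The low Igf1r of MMS 2 and MMS 4 thus came with the lowest ependymal sums, whose part in the result was not tested. Among MMS pups with high Igf1r the ependymal sum varied, from 107 CPM in MMS 1 to 209 CPM in MMS 5. MMS 2 and MMS 4 departed from the controls at many genes. Both lay below all controls at 2644 of the genes tested, 20.2%, among them the members Igf1r, Insr and Foxo3. Both lay above all controls at 2472 genes, 18.9%, and at 0 members.

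Irs2 encodes the adaptor between these receptors and PI3-kinase, and FOXO factors induce it when insulin is low (chromosome 8, 10984681 to 11008458, minus strand). Its level was 9.88 ± 4.03 CPM in controls and 12.8 ± 7.17 in MMS pups (SD, n = 6 each). The lowest, median and highest values were 6.71, 9.11 and 17.7 CPM in controls and 6.36, 10.1 and 26.6 CPM in MMS pups. A single library was high in each group, Control 2 and MMS 2. The log2 fold change of 0.39 was the largest of the tested members (SE 0.30, 95% interval −0.24 to 1.03, edgeR adjusted p = 0.678). It was 0.06 without MMS 2 and 0.63 without Control 2, and the latter was the only leave-one-out fit in which a member reached an unadjusted p under 0.05. The antisense gene 9530052E02Rik had 33 reads against 596 for Irs2.

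Foxo1 and Foxo3 encode the forkhead factors that AKT inactivates. Foxo1 (chromosome 3, 52268336 to 52353221, plus strand) ran from 28.4 through a median of 34.7 to 37.1 CPM in controls and from 27.1 through 30.7 to 44.7 CPM in MMS pups. Its mean was 33.5 ± 3.44 CPM in controls and 32.1 ± 6.48 in MMS pups (SD, n = 6 each). MMS 1 had the high value of 44.7 CPM, and the other MMS pups lay at or under 31.8 CPM. MMS pups differed from controls by −0.06 on the log2 scale (SE 0.14, 95% interval −0.35 to 0.23, edgeR adjusted p = 0.894). Genes on both strands overlap Foxo1.

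Foxo3 (chromosome 10, 42181841 to 42276755, minus strand) had lowest, median and highest values of 44.9, 50.2 and 57.4 CPM in controls and 32.8, 47.2 and 68.1 CPM in MMS pups. Both MMS 2, at 32.8 CPM, and MMS 4, at 36.0 CPM, lay under all controls, as did MMS 6 at 42.2 CPM, and MMS 3 lay above them. The means were 50.5 ± 5.04 and 47.9 ± 13.4 CPM (SD, n = 6 each). On the log2 scale the difference was −0.08 (SE 0.15, 95% interval −0.40 to 0.24, edgeR adjusted p = 0.879). Without MMS 2 and MMS 4 it was 0.12.

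Sesn1 encodes a sestrin, a leucine-binding inhibitor of the mTORC1 kinase and a known FOXO3 and p53 target (chromosome 10, 41809935 to 41908424, plus strand). The gene 9930024M15Rik overlaps it on the same strand. Levels were 20.2 ± 3.98 CPM in controls and 19.4 ± 5.86 in MMS pups (SD, n = 6 each). The lowest, median and highest values were 15.1, 20.6 and 25.1 CPM in controls and 12.2, 17.3 and 26.7 CPM in MMS pups. MMS 1 and MMS 4 lay above the controls and MMS 6 below them. The group difference was a log2 fold change of −0.04 (SE 0.19, 95% interval −0.44 to 0.36, edgeR adjusted p = 0.950).

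Txnip (chromosome 3, 96557957 to 96561883, plus strand), whose promoter words are printed above, varied more among controls than among MMS pups, alone of the tested members. Controls ran from 6.19 through a median of 14.0 to 20.97 CPM and MMS pups from 9.98 through 14.6 to 19.99 CPM. All MMS pups lay inside the control range. The means were 13.0 ± 5.88 and 14.6 ± 3.46 CPM (SD, n = 6 each), with a log2 fold change of 0.16 (SE 0.26, 95% interval −0.39 to 0.71, edgeR adjusted p = 0.850). Leaving out Control 1 gave 0.02 and leaving out Control 3 gave 0.36. Its antisense gene Gm15441 had 10 reads against 770.

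Pdk4 encodes the kinase that switches off pyruvate dehydrogenase and so spares glucose (chromosome 6, 5483351 to 5496309, minus strand). Read counts were 2, 3, 13, 11, 12 and 6 in Controls 1 to 6 and 22, 1, 7, 10, 9 and 9 in MMS 1 to 6. The MMS 1 library held the highest count and MMS 2 the lowest. The level was 1.51 ± 0.812 CPM in controls and 2.33 ± 1.62 in MMS pups (SD, n = 6 each). Because the gene failed the count filter it was tested only without that filter, where the log2 fold change was 0.59 (edgeR adjusted p = 0.651, SE 0.49). Without MMS 2 and MMS 4 it passed the filter, with a log2 fold change of 0.94 (edgeR adjusted p = 0.961, SE 0.47).

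Cpt1a encodes the enzyme that admits long-chain fatty acids to mitochondria (chromosome 19, 3322334 to 3385733, plus strand). Its level was 28.8 ± 3.15 CPM in controls and 25.3 ± 7.73 in MMS pups (SD, n = 6 each). Lowest, median and highest values were 24.8, 28.8 and 33.8 CPM in controls and 16.1, 24.9 and 34.8 CPM in MMS pups. MMS 2, 5 and 6 lay under all controls and MMS 4 above them. MMS relative to control gave a log2 fold change of −0.18 (SE 0.17, 95% interval −0.54 to 0.18, edgeR adjusted p = 0.745), and −0.26 without MMS 2 and MMS 4.

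Angptl4 encodes a secreted inhibitor of lipoprotein lipase that fasting induces in fat and liver (chromosome 17, 33773750 to 33781830, minus strand). Its level was 9.95 ± 2.26 CPM in controls and 10.1 ± 3.75 in MMS pups (SD, n = 6 each). Controls ran from 7.87 through a median of 9.57 to 12.8 CPM and MMS pups from 6.47 through 9.23 to 17.3 CPM. MMS 1 alone lay above the controls. This gave a log2 fold change of 0.03 (SE 0.23, 95% interval −0.46 to 0.51, edgeR adjusted p = 0.976), and −0.19 without MMS 1.

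**Figure D3:**
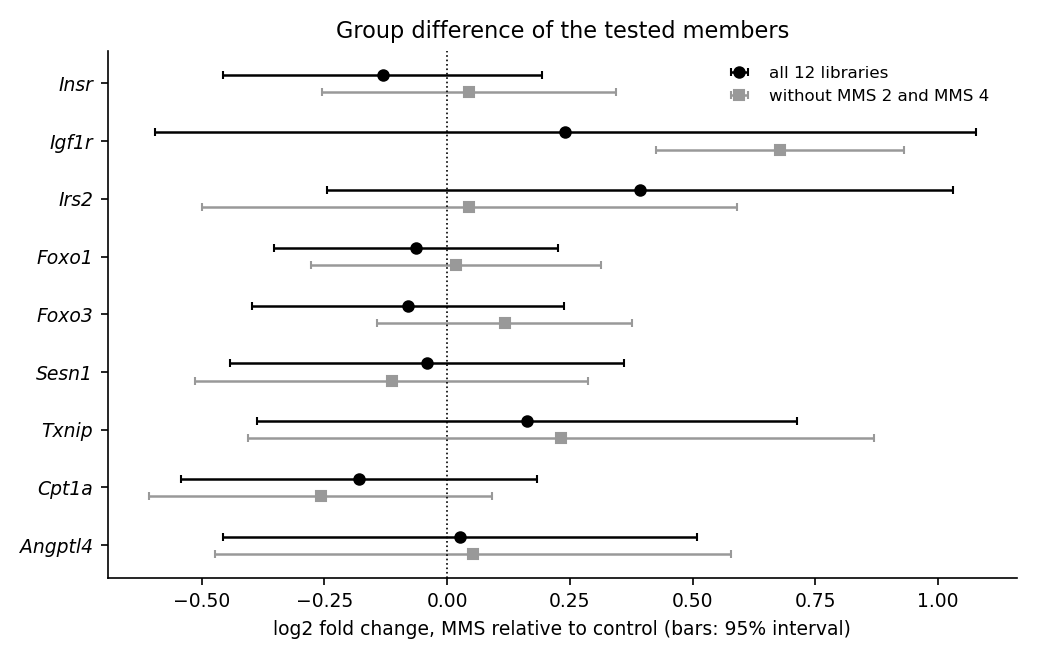
Log2 fold change of the 9 tested members, MMS relative to control, from edgeR with bars for the 95% interval, for all 12 libraries (black circles) and without MMS 2 and MMS 4 (grey squares). Every black bar crosses 0. Of the grey bars, that of Igf1r, 0.43 to 0.93, does not, in a fit that leaves out the libraries with its lowest levels.

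The MMS 1 library was the highest of all 12 for 5 of the 10 members, namely Pdk4, Foxo1, Angptl4, Insr and Sesn1, against 7.82% of all genes tested. Markers of meninges and blood vessels were also high in that library. The sum of 8 markers of meninges and fibroblasts was 362 CPM in MMS 1, against 124 to 196 CPM in the other MMS pups and 188 to 363 CPM in controls, of which Control 3 was highest. The summed level of 12 endothelial markers was 291 CPM in MMS 1, against 254 to 286 CPM in controls and 192 to 263 CPM in the other MMS pups. The sum of 8 pericyte and smooth muscle markers was 182 CPM in MMS 1, against 136 to 170 CPM in controls. The part of these cells in the result was not tested. The SD of log2 CPM was larger among MMS pups for 8 of the 9 tested members, beside 72.9% of all genes. Without MMS 2 and MMS 4 it was larger for 7 of 9, beside 57.2%. These counts were not tested against the share over all genes.

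The rest of the pathway was read from 7 lists with 143 genes, of which 124 were tested. Of these 0 passed the adjusted threshold in edgeR, 11 were higher and 9 lower in MMS at an unadjusted p under 0.05, 16.1% in all beside 9.08% of all genes. Without MMS 2 and MMS 4 the count was 11 genes, 8.87% beside 5.03%. Because the lists were chosen with earlier results of these data known, these shares cannot test whether the pathway differed. MMS 2 and MMS 4 together lay below all controls at 33 of the 124 genes and above all controls at 26, beside 20.2% and 18.9% of all genes. The log2 fold changes of all 124 are plotted by list.

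**Figure D4:**
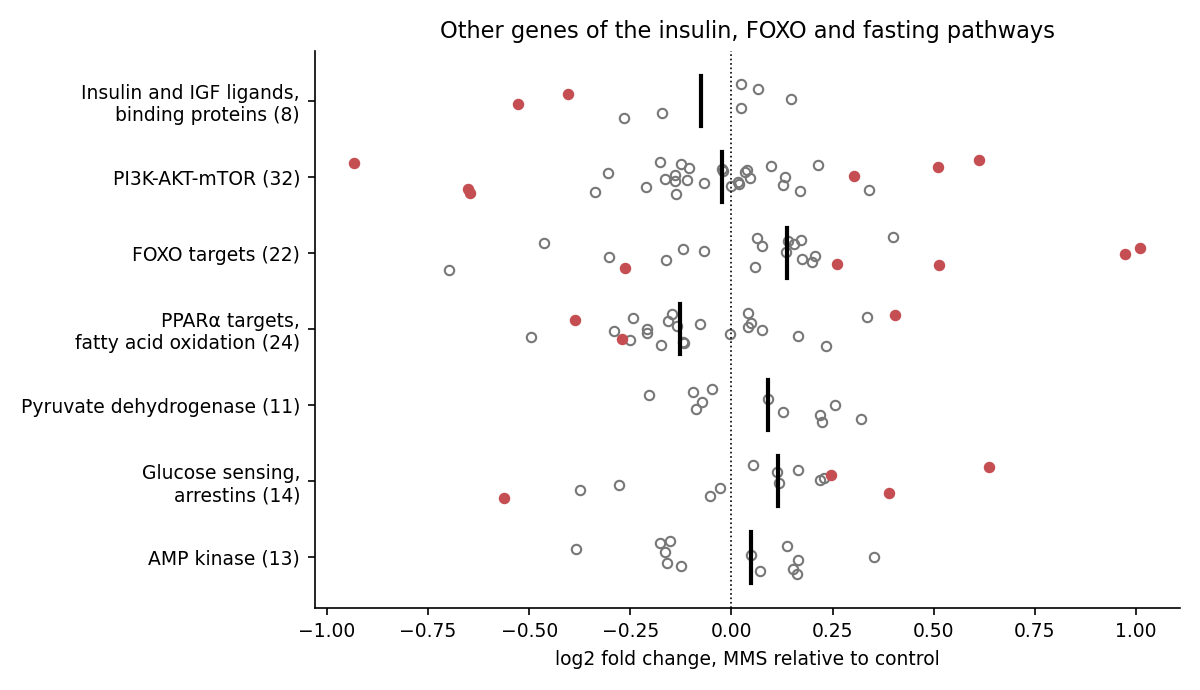
Log2 fold change, MMS relative to control, of the 124 tested pathway genes in 7 lists (number tested in brackets), one circle per gene, filled red at an unadjusted p under 0.05 in edgeR, with a black bar at each list's median. Medians lie between −0.13 and 0.14; Shc1 at −0.93 and Klf15 at 1.01 are the outermost red points.

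Of the ligands and binding proteins, 8 of 12 were tested, 4 higher and 4 lower, with a median log2 fold change of −0.07. Insulin itself was nearly absent, with 1 read of Ins1 and 5 of Ins2 over all libraries. Igf1, the growth factor that acts on Igf1r, had 32.8 ± 8.70 CPM in controls and 27.0 ± 5.05 in MMS pups (SD, n = 6 each), a log2 fold change of −0.27 (edgeR adjusted p = 0.623, SE 0.17). Igfbp2 and Igfbp4, whose proteins bind insulin-like growth factors outside the cell, had the smallest p-values. Igfbp2 ran from 64.9 to 124 CPM in controls and from 45.7 to 81.7 CPM in MMS pups, a log2 fold change of −0.53 (edgeR adjusted p = 0.543, SE 0.18). It is itself 1 of the 8 markers of the meninges, whose sum, Igfbp2 included, was 188 to 363 CPM in controls and 124 to 362 CPM in MMS pups, and the part of those cells was not tested. Control 3, the highest for Igfbp2, also held 1791 CPM of 8 choroid plexus markers, against 13.8 to 45.8 CPM elsewhere. Igfbp4 ran from 57.5 to 80.2 CPM and from 37.3 to 72.1 CPM, a log2 fold change of −0.41 (edgeR adjusted p = 0.543, SE 0.14). Leaving out MMS 2 and MMS 4, these were −0.35 for Igfbp2 and −0.25 for Igfbp4.

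Signal transduction from the receptors through PI3-kinase and AKT to mTOR had 32 of 33 genes tested, 14 higher and 18 lower, with a median log2 fold change of −0.02. At an unadjusted p under 0.05 3 were higher and 3 lower, beside 4.68% and 4.4% of all genes. Shc1, which encodes an adaptor that links receptors to the RAS pathway, was below all controls in 6 of 6 MMS pups. Its level was 7.34 to 10.3 CPM in controls and 2.48 to 7.02 CPM in MMS pups, from 9 to 59 reads a library. The log2 fold change was −0.93 (edgeR adjusted p = 0.471, SE 0.26), and −0.83 without MMS 2 and MMS 4. It was the only pathway gene of the 124 whose groups lay apart, beside 0.259% of all genes with MMS lower and 0.13% with MMS higher. The share of all genes with 5 of 6 MMS pups beyond every control, as for some genes below, was not counted.

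Foxo4, the X-linked relative of Foxo1 and Foxo3, ran from 8.83 to 12.8 CPM in controls. In the MMS pups it was 8.43, 4.03, 13.0, 6.03, 6.47 and 5.15 CPM in MMS 1 to 6. Thus 5 MMS pups lay below all controls and MMS 3 above them. Its log2 fold change was −0.65 (edgeR adjusted p = 0.543, SE 0.24). Foxo6, a relative found mainly in brain, ran from 65.0 to 91.5 CPM in controls. In the MMS pups it was 55.7, 40.3, 97.8, 46.8, 92.0 and 80.8 CPM in MMS 1 to 6, on both sides of the controls. The log2 fold change of Foxo6 was −0.21 (edgeR adjusted p = 0.728, SE 0.19). Akt1s1, which encodes an inhibitor of mTORC1, had a log2 fold change of −0.65 (edgeR adjusted p = 0.543, SE 0.23). Pik3ca, a catalytic subunit of PI3-kinase, was above all controls in 5 of 6 MMS pups, with a log2 fold change of 0.30 (edgeR adjusted p = 0.543, SE 0.12). Leaving out MMS 2 and MMS 4, log2 fold changes were −0.45 for Foxo4, −0.42 for Akt1s1 and 0.14 for Pik3ca. The adaptors Irs1 and Irs4, relatives of Irs2, had log2 fold changes of −0.11 and −0.16. Tsc2 and Rheb, an inhibitor of mTORC1 and the GTPase it acts on, completed the 6 genes at 0.61 and 0.51 and are named after their values were seen. At both genes MMS 2 and MMS 4 lay above all controls. Without those libraries 0 genes of this list were higher and 1 lower at an unadjusted p under 0.05.

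FOXO target genes had 22 of 26 tested, 15 higher and 7 lower, with a median log2 fold change of 0.14. At an unadjusted p under 0.05 4 were higher and 1 lower, beside 4.68% and 4.4% of all genes. Without MMS 2 and MMS 4 6 were higher and 0 lower, beside 5.03% of all genes in either direction. Of these 6, Trib1, Cdkn1a and Map1lc3b, named after their values were seen, were not among the 4. In that fit signal transduction and glucose sensing each had 0 higher and 1 lower, and PPARα targets 0 and 2. Pyruvate dehydrogenase had 1 and 0, and the ligands and AMP kinase lists 0 and 0. In both fits 0 of the FOXO target list passed the adjusted threshold. Klf15, which encodes a fasting- and glucocorticoid-responsive transcription factor, had the smallest p of all pathway genes. Its level was 3.66 to 7.87 CPM in controls, and 12.4, 9.94, 10.9, 15.4, 5.88 and 16.7 CPM in MMS 1 to 6. All MMS pups but MMS 5 lay above every control. The log2 fold change was 1.01 (edgeR adjusted p = 0.385, SE 0.25), and 0.95 without MMS 2 and MMS 4. Bnip3, a mitophagy receptor, was above every control in 5 of 6 MMS pups. Controls ran from 87.8 to 107 CPM and MMS pups from 98.4 to 136 CPM, a log2 fold change of 0.26 (edgeR adjusted p = 0.543, SE 0.11).

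Ddit4, which encodes an inhibitor of mTORC1 induced by hypoxia and glucocorticoids, rested on MMS 2 and MMS 4. These had 156 and 139 CPM, against 30.0 to 51.4 CPM in controls and 39.8 to 59.0 CPM in the other MMS pups. Its log2 fold change of 0.97 (edgeR adjusted p = 0.543, SE 0.36) was 0.21 without them. Atg12, of the autophagy machinery, was below every control in 5 of 6 MMS pups, with a log2 fold change of −0.26 (edgeR adjusted p = 0.543, SE 0.10), and −0.15 without MMS 2 and MMS 4. Bcl6, a transcriptional repressor, was the remaining gene of the 5 at 0.51 and is named after its values were seen. The list holds the sestrins Sesn2 and Sesn3 at 0.14 and 0.17, and the feeding neuropeptide genes Agrp and Pomc at −0.70 and −0.46, none of them with an unadjusted p under 0.05. Summed over the 26 genes, FOXO targets had 1665 to 1894 CPM in controls and 1902 to 1964 CPM in MMS pups. That sum was not tested, and its list was chosen with earlier results of these data known. It takes no account of whether FOXO factors raise or lower each gene. How often the sums of other sets of 26 genes lie apart was not examined. Of the genes in the FOXO target sum, the autophagy gene Gabarapl1 differed most in CPM, with means of 496 and 544 CPM in control and MMS pups. Ddit4 came next, with 41.2 and 80.7 CPM, and rested on MMS 2 and MMS 4. Those libraries had the lowest FOXO target sums of the MMS pups, 1902 and 1907 CPM. Without their Ddit4 reads, at 156 and 139 CPM, both sums would lie inside the control range. Atg12, with 219 and 183 CPM, went the other way.

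PPARα targets and genes of fatty acid oxidation had 24 of 30 tested, 8 higher and 16 lower, with a median log2 fold change of −0.13, and −0.0040 without MMS 2 and MMS 4. Of the relatives of Cpt1a, Cpt1b had 0 reads and the brain form Cpt1c had a log2 fold change of −0.21 (edgeR adjusted p = 0.623, SE 0.14). The hormone gene Fgf21 had 0 reads in all libraries. Ppargc1a, a coactivator of oxidative metabolism, had 69.6 and 74.0 CPM in MMS 2 and MMS 4 and 36.1 to 44.2 CPM in controls. MMS 6, at 50.9 CPM, also lay above all controls. The log2 fold change of Ppargc1a was 0.40 (edgeR adjusted p = 0.543, SE 0.16), and 0.11 without MMS 2 and MMS 4. Acot1, an acyl-CoA thioesterase, was at −0.27 (SE 0.11) and Plin2, a lipid droplet coat gene, at −0.39 (SE 0.17), both with an edgeR adjusted p of 0.543.

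All 11 genes of pyruvate dehydrogenase and its regulators were tested, 6 higher and 5 lower, with a median log2 fold change of 0.09 and 0 at an unadjusted p under 0.05. The smallest p was that of Pdha1, a subunit of the enzyme, with a log2 fold change of 0.22 (edgeR adjusted p = 0.556, SE 0.11). The kinases Pdk1, Pdk2 and Pdk3, relatives of Pdk4, had log2 fold changes of 0.25, −0.07 and 0.09. Pdk1 was high in MMS 2 and MMS 4, at 50.5 and 40.3 CPM, against 25.5 to 33.5 CPM in controls.

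Around Txnip, 14 of 17 genes of glucose sensing and uptake were tested, 9 higher and 5 lower, with a median of 0.12 on the log2 scale. Arrdc4, a relative of Txnip under the same glucose-responsive factors, ran from 8.48 to 14.0 CPM in controls and from 11.8 to 18.5 CPM in MMS pups, a log2 fold change of 0.39 (edgeR adjusted p = 0.543, SE 0.18). Arrdc1, another arrestin-fold gene, was lower by a log2 fold change of −0.56 (edgeR adjusted p = 0.518, SE 0.17). Txnrd1, which encodes the reductase of thioredoxin, was at 0.64 (edgeR adjusted p = 0.518, SE 0.19), and at 0.24 without MMS 2 and MMS 4. Those libraries had 55.9 and 64.4 CPM against 23.6 to 29.3 CPM in controls, and MMS 3, at 40.3 CPM, also lay above all controls. Slc2a3, the neuronal glucose transporter, was at 0.25 (edgeR adjusted p = 0.543, SE 0.11). AMP kinase and its regulators, which sense cellular energy, had 13 of 14 genes tested, 7 higher and 6 lower, with a median of 0.05. Prkab1, a regulatory subunit, had the smallest p, with a log2 fold change of 0.35 (edgeR adjusted p = 0.563, SE 0.18).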

How the data were processed

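The authors made libraries from hypothalamic RNA with a 3' mRNA kit, sequenced them on an Ion Proton and aligned reads to mm10 in Torrent Suite. They deposited raw counts per gene, 1 column per library, without normalization. The counting tool, annotation and use of strand were not given in the sources used here, and 27 rows with date names (0.175% of counts) were kept unnamed. Groups came from the titles. Within groups, 30 library pairs differed by a chi-square per degree of freedom of 4.04 to 31.5, so no pair was the same library sequenced again. This does not by itself show that each came from a separate pup.

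Counts were tested with edgeR 4.0.16 (quasi-likelihood, robust, TMM scaling, minimum count 10, minimum total 15, two-sided) in R 4.3.3, with Benjamini-Hochberg adjustment over 13104 genes and a threshold of 0.05. DESeq2 1.42.0, limma-voom 3.58.1, other scaling, no filter, a replicate block and fits without single libraries were alternatives, and the edgeR, DESeq2, limma-voom and block fits were tested on simulated data. Coordinates are GENCODE M21. Members and lists were chosen with earlier results of these data known. All members are named, and of each list at most 4 genes at an unadjusted p under 0.05, otherwise the 1 with the smallest p. Further genes, among them relatives of members, Igf1, Ins1, Ins2, Fgf21, Gabarapl1, Agrp and Pomc, are named outside that rule. Same-numbered libraries did not deviate together throughout. Reads carry no molecular identifiers, so read numbers are not numbers of molecules and do not give the full counting error.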

Additional observations from a re-analysis of the deposited data

Results flagged for a closer look

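Among 56 sets of 6 libraries, for members and named pathway genes, 4 had 1 library far from the other 5 by Dixon's test at the 95% level, where chance gives about 2.8. All 4 concerned members. Irs2 was high at 17.7 CPM in Control 2, with the next control at 9.90 CPM, and at 26.6 CPM in MMS 2, with the next MMS pup at 13.8 CPM. Foxo1 was high at 44.7 CPM in MMS 1, with the next at 31.8 CPM. Angptl4 was high at 17.3 CPM in MMS 1, with the next at 9.93 CPM.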

How the results depend on the processing

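Over 18 alternative fits of the 9 tested members, 145 of 162 log2 fold changes kept their direction and side of the threshold, 16 in 6 genes changed sign and 1 passed the threshold, Igf1r without MMS 2 and MMS 4. All 342 values of the 19 named pathway genes kept both. Signs changed for Angptl4 (0.03) with limma-voom (−0.0022), with the replicate block (−0.016) and over leave-one-out fits (−0.19 to 0.14), for Igf1r with limma-voom (−0.093), and without MMS 2 and MMS 4 for Foxo1 (0.018), Foxo3 (0.12) and Insr (0.044). Leaving out 1 library moved Foxo3 between −0.20 and 0.014 and Sesn1 between −0.15 and 0.056. Members past the threshold numbered 1 without MMS 2 and MMS 4, which was also the 1 member at an unadjusted p under 0.05, and leaving out 1 library gave 0 to 1 such member, Irs2 without Control 2. Over all genes, the 0 past the threshold became 7 with DESeq2, 1 without a count filter, 1 with the replicate block, 5 without MMS 2 and MMS 4 and 0 to 1 leaving out 1 library. Genes at an unadjusted p under 0.05, 1190 in all libraries, numbered 2039 without a filter (of 23550 tested), 674 without MMS 2 and MMS 4, and from 700 without MMS 2 to 1804 without MMS 5. Pathway genes at that level, 20 in all libraries, numbered 11 without MMS 2 and MMS 4 and from 13 without MMS 2 to 27 without MMS 5, alternatives chosen after seeing the data. Beyond fewer samples or genes, the causes were not tested. With the replicate block 0 members passed. Correlations of same-numbered libraries ran from −0.05 to 0.12, and libraries did not all correlate best with their own number, so the number is not taken as a pairing. Depth limits Pdk4 most, at 1 to 22 reads a library.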
